A study of Sus scrofa with 40 samples.

Results

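The 200 probe sets described here moved against ACTA2, the smooth muscle alpha-actin gene, when regenerated coronary endothelial cells were compared with native ones. For each of 17999 probe sets, the difference regenerated minus native was taken in 20 pairs of cultures on the scale log2(signal + 16). The members are the 200 with the most negative Pearson correlation r between these differences and those of the single ACTA2 probe set, and they make up 1.11% of the probe sets. Their r values ran from -0.917 to -0.806 with a median of -0.833, against a median of 0.01 over all probe sets tested. The members were thus chosen by these measured r values and the differences between regenerated and native arrays behind them, which are given as a description with no test. The authors' tables call the ACTA2 probe set vascular smooth muscle alpha-actin. At the limit, the last 3 members inside, PSME2 among them, had r of -0.8064, and the next 3 probe sets outside had -0.8063, -0.8058 and -0.8055.

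The cells were primary endothelial cultures of female farm pigs aged 4 months, scraped from the lumen of the coronary arteries and grown for 10 days without passage. The left circumflex artery gave the native cells, and the left anterior descending artery, denuded earlier, gave the regenerated cells, so the 2 states always came from different arteries. There were 8 control pairs, 6 pairs from animals fed high cholesterol (CHL) and 6 from a group rich in polyunsaturated fatty acids that the study's title links to fish oil (FO). Each culture was hybridised to 1 Affymetrix porcine array.

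Endothelial cells line the inside of arteries and form the barrier between blood and vessel wall. They sense interferons, secreted proteins that switch on antiviral genes, and interferon also induces the immunoproteasome and the peptide transporters that load MHC class I. ACTA2 encodes a contractile actin that is abundant in smooth muscle cells and myofibroblasts. The proteasome degrades proteins tagged with ubiquitin, and its regulatory particle is built from PSMC and PSMD subunits.

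The arrays had median signals from 75.8 to 121. In 2 pairs, control 6 and FO 3, the regenerated array had degraded RNA, with actin 3'/5' signal ratios of 264 and 422 against 1.33 to 6.89 on the other 38 arrays. In 3 pairs, control 4, control 5 and FO 6, the 2 arrays correlated below 0 in their deviations from the group means, with -0.118, -0.030 and -0.225, while the other 17 pairs were above 0.1. The labels of FO 6 name different animals, and those of control pairs 1 to 5 do not show a shared animal. These 3 pairs also had the largest ACTA2 differences of all, so values without them stand beside the main ones.

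ACTA2 was higher in regenerated cells of 6 of 8 control pairs, with differences of 3.16, 3.84, -1.09, 6.69, 8.26, 4.07, 4.03 and -0.01 for control pairs 1 to 8. In CHL the differences were -0.35, -0.86, -1.41, -0.48, -0.22 and 0.67. In FO they were 3.14, 0.52, 0.70, 0.49, -0.48 and 5.92. The large differences were thus in control and FO pairs, and no CHL pair exceeded 0.67.

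The mean over the 200 members ran the other way. In control it differed by -0.54, -0.97, 0.24, -2.05, -2.41, -1.56, -0.31 and 0.17, a mean of -0.93 ± 0.997 (SD, n = 8). In CHL it differed by 0.62, -0.08, 0.72, 0.10, -0.74 and -0.10, a mean of 0.09 ± 0.54 (n = 6). In FO it differed by -0.74, -0.02, -0.32, -0.05, 0.50 and -1.85, a mean of -0.41 ± 0.81 (n = 6). Regenerated cells had the lower mean in 6 of 8 control, 3 of 6 CHL and 5 of 6 FO pairs, and control 5, control 4 and FO 6 were the lowest. In control cultures the native level was 10.01 ± 0.77 and the regenerated level 9.08 ± 0.85. Across the 20 pairs the r between this mean and ACTA2 was -0.919 (Spearman's rho -0.881), and in the 17 pairs it was -0.787 (rho -0.806). In these bulk cultures, fewer cells of a type and less RNA per cell cannot be told apart.

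**Figure D1:**
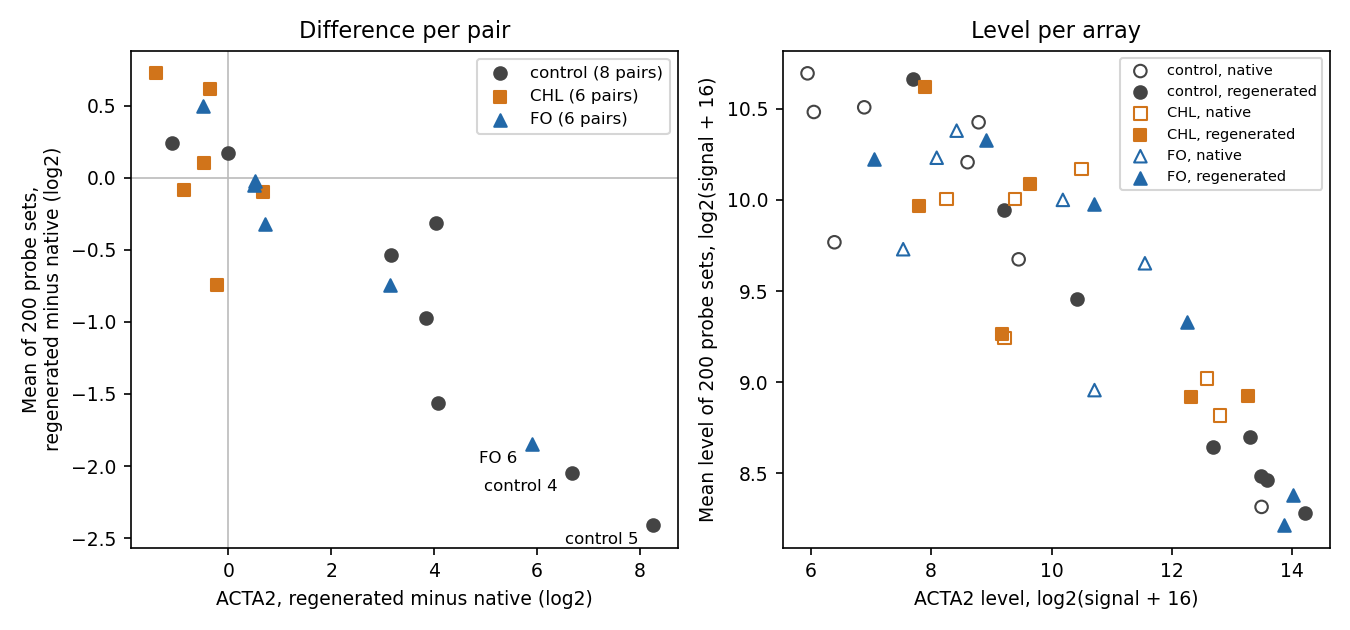
Mean of the 200 members against ACTA2. On the left, each point is 1 of 20 pairs and both axes are regenerated minus native on the log2 scale. On the right, each point is 1 of 40 arrays and both axes are levels as log2(signal + 16). The member mean is lowest in control 5 at -2.41, where ACTA2 is 8.26 higher, and the native control array with ACTA2 at 13.49 has a member mean of 8.32.

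The opposition was also present in the levels of each cell state, which share their arrays with the differences. Across the 20 native arrays all 200 members had a negative r with the ACTA2 level, with a median of -0.636, against 47.6% of all probe sets. Across the 20 regenerated arrays all 200 did so too, with a median of -0.796. The native array of control 8 had an ACTA2 level of 13.49, and its member mean of 8.32 was lower than that of any other native array. Its regenerated partner had 13.48 and 8.49, so the 2 arrays of this pair were alike.

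The authors' deposited annotation covers 184 of the 200 members. That is 92% of the members against 60.5% of the probe sets tested. A single gene symbol was found for 87 members, and 138 could be given a product name from a symbol, title or description. The remaining 62 have no product name here. Sorted by role, 27 probe sets belong to interferon genes, 8 to antigen presentation, 7 to the proteasome and ubiquitin, 4 to complement and 18 to chemokines, cytokines and leukocyte surface proteins. A further 2 belong to endothelial junctions and caveolae, 11 to the nucleolus, RNA and transcription, 25 to metabolism, 15 to the cytoskeleton, trafficking and folding, and 21 to signalling and other functions. As sorted here, interferon genes and antigen presentation thus make up 35 of the 138 named probe sets, and some interferon-induced genes stand under other roles.

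**Figure D2:**
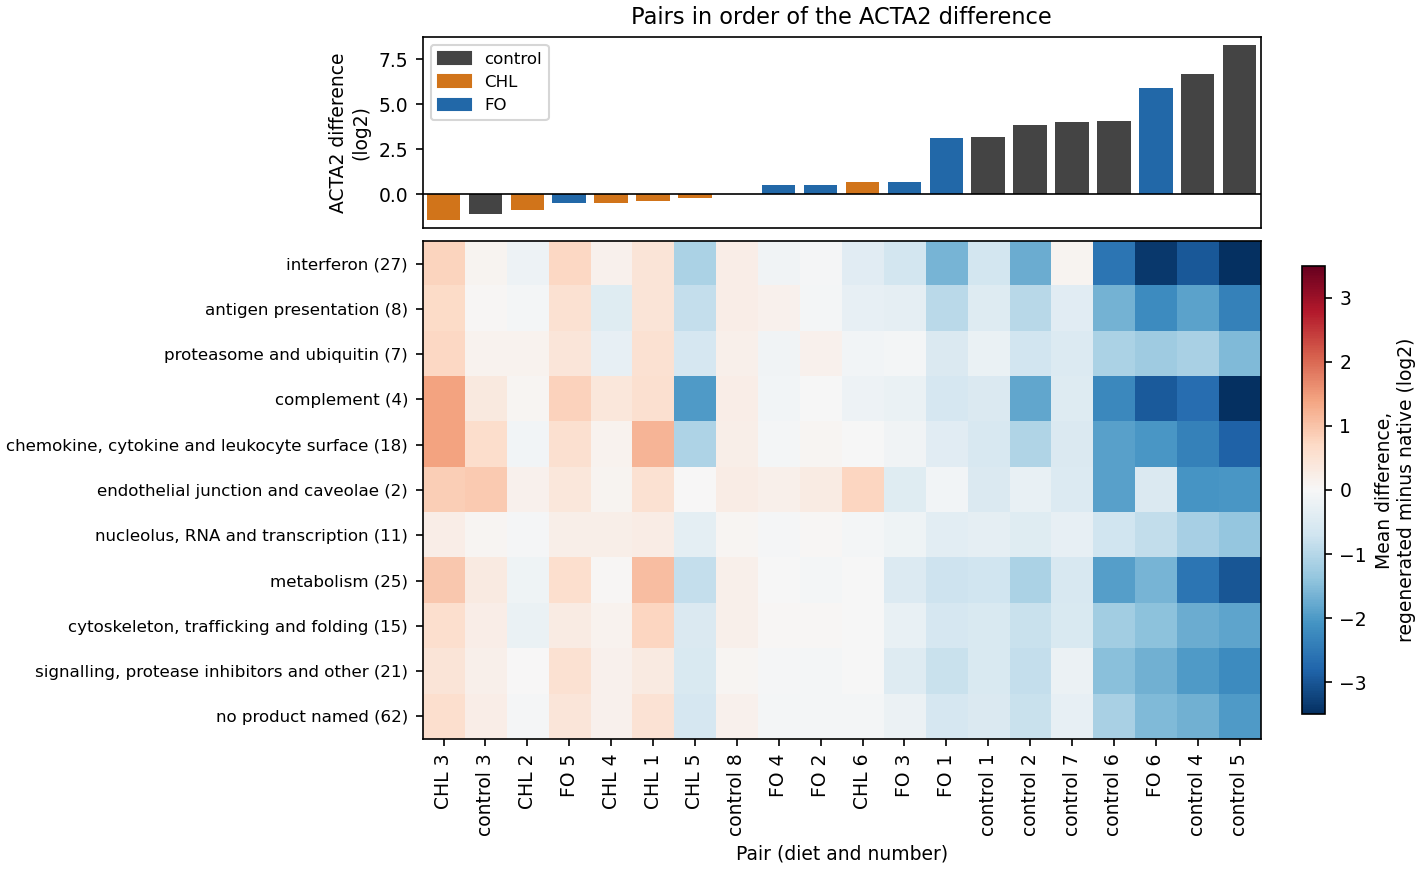
Mean difference regenerated minus native of each role, as colour on the log2 scale, in the 20 pairs ordered by their ACTA2 difference, which the bars above show on the same scale. The number of probe sets stands beside each role. The darkest blue lies on the right, at control 6, FO 6, control 4 and control 5, except that the endothelial row is pale in FO 6, and the interferon and complement rows are the deepest.

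Interferon genes had the largest median difference of any role, at -0.82 over the 20 pairs. The interferon mean was -1.39 ± 1.53 in control (lower in 5 of 8 pairs), -0.05 ± 0.66 in CHL (3 of 6) and -0.84 ± 1.46 in FO (5 of 6). IFITM1, a membrane protein that blocks virus entry, had the most negative r of them at -0.906. Its native control levels were 10.74 at the lowest, 12.74 at the median and 13.66 at the highest, and the regenerated ones 10.38, 11.13 and 12.96. The groups overlapped, and 6 of 8 pairs were lower in the regenerated culture, with a median difference of -0.79.

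IRF7, the transcription factor that amplifies the type I interferon response, lay at 7.30, 11.37 and 11.87 in native and 7.04, 8.39 and 11.35 in regenerated control cultures. The IRF7 differences spanned -4.62 to 0.01 in control, -1.42 to 0.74 in CHL and -4.21 to 1.11 in FO. A second IRF7 probe set was dimmer, with a mean level of 6.42, and had a control mean of -2.43 ± 2.27. The RNA sensor DDX58 (RIG-I) had 2 probe sets, with control means of -1.49 ± 1.79 and -2.55 ± 2.78. DDX60, a helicase related to RIG-I signalling, differed by -2.06 ± 2.35 in control, -0.35 ± 0.89 in CHL and -1.62 ± 2.18 in FO. For these genes the spread between pairs was as wide as the mean difference.

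Of the interferon-stimulated genes listed for this tissue, 15 of 34 measured probe sets were members, and 32 of the 34 had a negative r with a median of -0.796. The members of that list include USP18, which removes the ubiquitin-like ISG15 from proteins, the GTPases MX1 and MX2, and OAS1, which makes the activator of RNase L. Interferon genes outside the list include XAF1, SP100, IFI35, TRIM21, NMI, TREX1, DDX60 and RTP4. The titles of some members sorted under other roles also belong to genes known as interferon-induced in human. Examples are chromosome 1 open reading frame 29 (2 probe sets), the B aggressive lymphoma gene and zinc finger CCCH type domain containing 1. The r of these 4 probe sets with the interferon mean was 0.974, 0.933, 0.968 and 0.952. The examples are not a full count, and ubiquitin D, sorted with the proteasome, is another, with 0.870.

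Antigen presentation had 8 members, and its mean difference was -0.93 ± 0.95 in control, -0.08 ± 0.56 in CHL and -0.47 ± 0.98 in FO. TAP1, a subunit of the peptide transporter for MHC class I, had native control levels of 10.37, 12.28 and 13.17 and regenerated ones of 10.32, 11.18 and 13.16. The immunoproteasome subunit PSMB8 lay at 9.16, 11.65 and 12.13 in native and at 7.99, 9.66 and 11.20 in regenerated control cultures. PSMB8 was lower in the regenerated culture of 7 of 8 control, 5 of 6 CHL and 5 of 6 FO pairs, so it was lower in most pairs of every diet. The other members here are PSMB9, the proteasome activator subunits PSME1 and PSME2, and the swine MHC class I genes SLA-3, SLA-6 and SLA-8. The SLA genes are near-identical copies, so signal may be shared among their probe sets.

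Beyond the immunoproteasome, subunits of the constitutive proteasome were members with smaller differences. PSMD4, the ubiquitin receptor of the regulatory particle, had an r of -0.893, beside native control levels of 11.09, 11.86 and 12.27 and regenerated ones of 10.55, 11.46 and 11.78. PSMD4 differed by -0.53 ± 0.63 in control, 0.19 ± 0.35 in CHL and -0.11 ± 0.28 in FO. The member probe sets of PSMC1 and PSMC3, ATPases of the regulatory particle, had mean differences over all pairs between -0.15 and -0.10. So did those of the non-ATPase subunits PSMD11 and PSMD13. Other probe sets with the title of PSMD11 are not members and had larger mean differences, -0.735 and -1.001, with r of -0.735 and -0.687. The probe sets of PSMD11 thus disagree in size, and its small difference holds for the member only. Ubiquitin D, a ubiquitin-like modifier induced by interferon gamma and TNF, varied far more, with control differences from -4.31 to 1.37.

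The word proteasome stands in the deposited text of 36 tested probe sets, a search added after the members were seen. All 36 had a negative r, with a median of -0.661, against 5369 of all 10888 listed probe sets. Of the 36, 10 were members, 5.43% of the listed members against 0.331% of all listed probe sets. The 10 include PSMB8, PSMB9, PSME1 and PSME2, which are counted above under antigen presentation. Without the 3 pairs 32 of the 36 had a negative r, with a median of -0.535. The median difference over the 36 was -0.13.

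**Figure D3:**
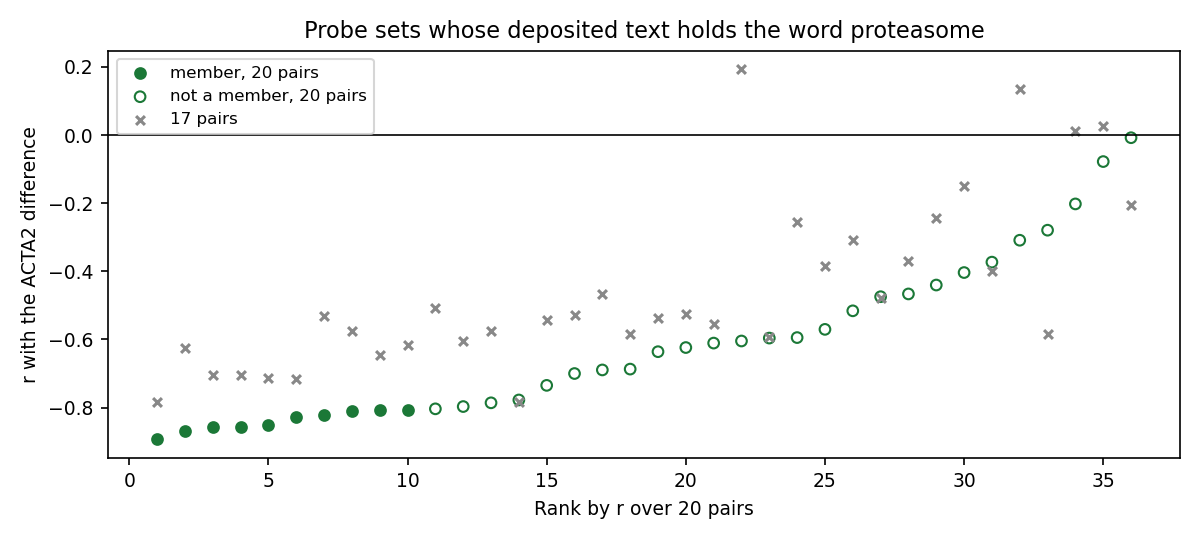
Correlation r with the ACTA2 difference for the 36 proteasome probe sets, ranked on the x axis. Filled circles are the 10 members and open circles the other 26, both over 20 pairs, and crosses are the same probe sets over 17 pairs. Every circle lies below 0, while 4 crosses lie at or above it.

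Complement contributed 4 probe sets: C1R and C1S, the proteases of the C1 complex, and factors H and I, the regulators that limit the alternative pathway. The complement mean was -1.34 ± 1.46 in control, 0.04 ± 1.13 in CHL and -0.52 ± 1.27 in FO. C1R had native control levels of 7.03, 12.90 and 13.74 and regenerated ones of 7.64, 9.68 and 13.44, and the largest C1R difference of all was -5.16 in FO 6. The probe set called factor H here has the deposited symbol of fumarate hydratase, but its description is that of the complement regulator. Of 27 listed probe sets whose text holds the word complement, 15 had a negative r, so the 4 members do not stand for complement genes as a whole.

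Among chemokines and leukocyte surface proteins, CXCL2, a chemokine that draws neutrophils, was represented by 3 probe sets. The first of them lay at 10.68, 13.63 and 13.96 in native and at 8.97, 10.96 and 14.02 in regenerated control cultures, with a control mean difference of -1.67 ± 2.01. The other CXCL2 probe sets had the smaller control mean of -0.65 each, with levels over 11.6 on every control array.

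CCRL2, an atypical chemokine receptor of endothelial and myeloid cells, had an r of -0.884 with differences of -0.62 ± 0.65 in control and 0.20 ± 0.49 in CHL. IL6ST, the signalling subunit of the IL-6 receptor family, had -1.11 ± 1.07 in control. CD47, the "do not eat me" ligand, had -0.53 in control and -0.01 in CHL. The role also holds the immediate early gene IER3, coronin 1A, caspase 4 and the sheddases ADAM8 and tumor necrosis factor alpha converting enzyme. LGALS9 (galectin 9) is named by its symbol, while its deposited description speaks of a urate transporter.

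Of the listed inflammatory adhesion, cytokine and NF-kappaB genes, 4 of 32 measured probe sets were members, but all 32 had a negative r with a median of -0.688. SELE, the adhesion molecule of activated endothelium, was just outside with -0.803.

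**Figure D4:**
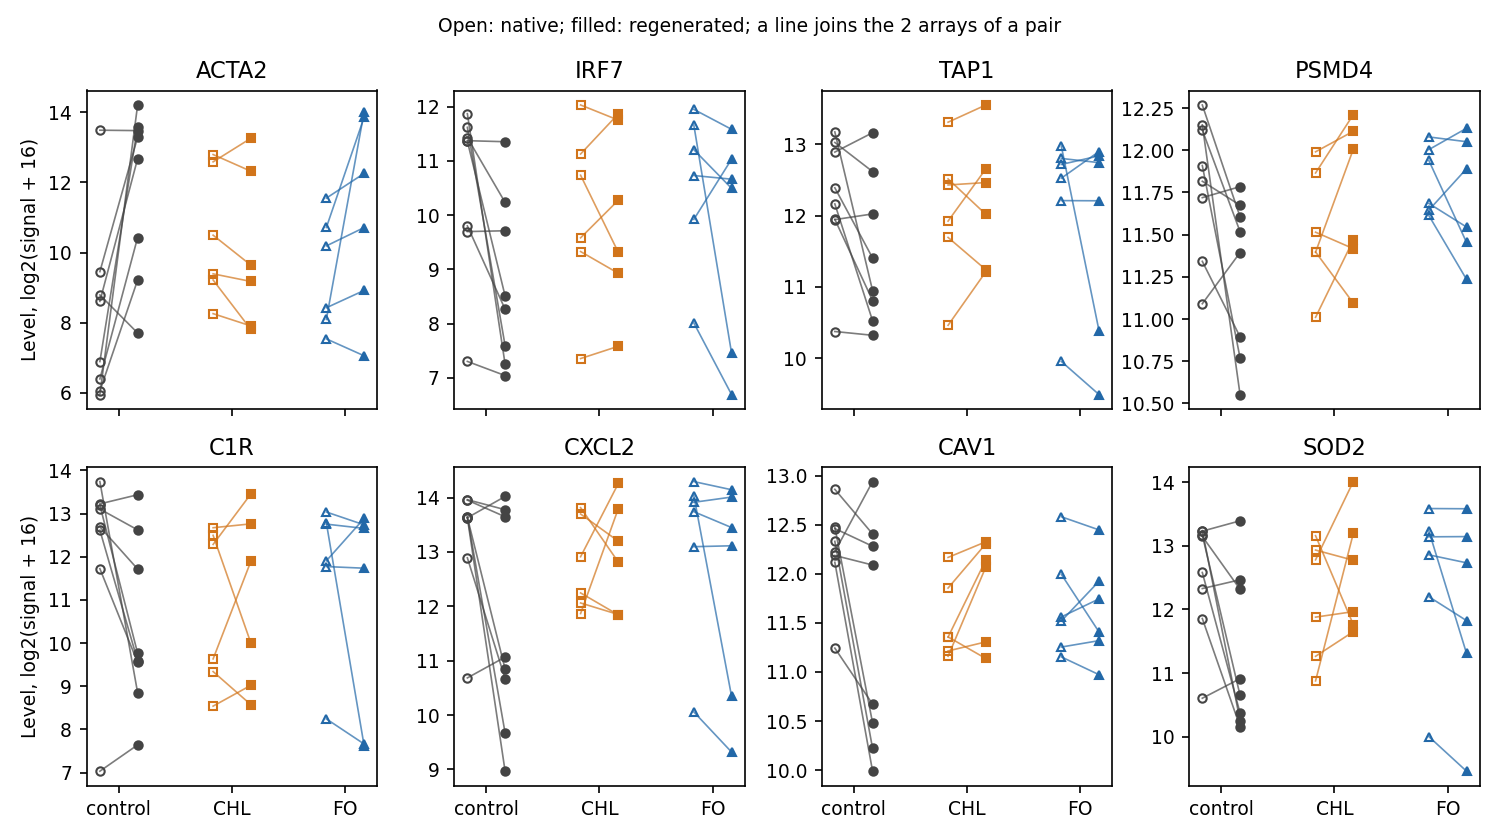
Levels as log2(signal + 16) of ACTA2 and 7 members in each array, by diet. Open symbols are native and filled symbols regenerated cultures, and a line joins the 2 arrays of a pair. ACTA2 lines climb in most control pairs where those of the members descend, while the CHL lines of the members run both ways.

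None of the 13 measured probe sets on the list of endothelial markers was a member, and 8 had a negative r. With members at 1.11% of all probe sets, a list this short would rarely hold one. Claudin 5, a tight junction protein of endothelium, is a member, but its provisional symbol kept it off the list count. Its differences were -0.66 ± 1.21 in control, 0.45 ± 0.45 in CHL and -0.00 ± 0.53 in FO. CAV1, which forms caveolae, lay at 11.24, 12.28 and 12.86 in native and at 9.99, 11.38 and 12.94 in regenerated control cultures. CAV1 was lower in the regenerated culture of 7 of 8 control pairs but of 1 of 6 CHL pairs. Integrin beta 3 (ITGB3), a vitronectin receptor subunit, differed by -1.13 ± 1.31 in control and 0.63 ± 0.57 in CHL.

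The summed signal of 10 endothelial marker genes ran from 20743 to 37807 on native and from 20595 to 42709 on regenerated arrays. That of 9 smooth muscle genes ran from 7323 to 55209 and from 8635 to 66465. The r of the list's mean difference with ACTA2 was -0.318 for the endothelial list, 0.005 without the 3 pairs, and 0.944 for the smooth muscle list, 0.860 without them. No step left ACTA2 itself out of the smooth muscle list. Its r can therefore be partly ACTA2 against itself, and is not a like measure to the other lists. The fibroblast list had 0.683, 0.297 without the 3 pairs, and the 4 measured adipocyte and lipid storage genes had 0.739, 0.485 without them. None of the 11 smooth muscle, 11 fibroblast, 7 macrophage or 2 lymphocyte probe sets was a member. Beside a share of 1.11% over all probe sets, these absences say little. Of 20 macrophage symbols 6 were measured, with a summed signal from 947 to 4750 on native and from 891 to 4168 on regenerated arrays and an r of -0.289. Of 21 lymphocyte symbols 2 were measured, with sums from 37.0 to 151. Coronin 1A, which leukocytes express, is a member, and the part of other cell types in the members' differences was not tested.

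The 2 most negative r values lay outside the immune genes. The first rank, r of -0.917, was a probe set whose title names S100 calcium binding protein A10, a partner of annexin A2 at the cell membrane. It lay at 8.72, 9.85 and 11.53 in native and at 8.69, 9.15 and 11.26 in regenerated control cultures. A second probe set with the same symbol had an r of 0.706, so the 2 probe sets disagree and the name is uncertain. LAMP2, a lysosomal membrane protein, and CAST (calpastatin, the inhibitor of calpains) have the same problem, with r from -0.862 to 0.452 and from -0.858 to 0.338 over their 3 probe sets each.

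Nucleolar and RNA genes were also near the top of the ranking, with small differences. Thyroid hormone receptor interactor 4, a transcriptional coactivator, had r of -0.907 and WD repeat domain 12, a factor of large ribosomal subunit assembly, -0.897. U3 small nucleolar interacting protein 2, which acts in pre-rRNA processing, also had -0.897. Thyroid hormone receptor interactor 4 lay at 9.60, 10.32 and 10.85 in native and at 9.36, 9.74 and 10.82 in regenerated control cultures. WD repeat domain 12 differed by -0.53 ± 0.66 in control, 0.09 ± 0.37 in CHL and -0.13 ± 0.45 in FO. U3 small nucleolar interacting protein 2 differed by -0.56 ± 0.60, 0.14 ± 0.35 and -0.05 ± 0.35.

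The role mean was -0.51 ± 0.53 in control, less than that of the interferon genes. Further members are the nucleolar helicase DEAD box polypeptide 56, EIF4A3 of the exon junction complex, splicing factor 4, the helicase senataxin and DR1, a repressor of TATA-binding protein. None of 12 listed translation and 9 listed RNA processing probe sets was a member, with median r of -0.14 and 0.09. Members are 1.11% of all probe sets, so lists this short would rarely hold one, and the absence says little.

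Metabolic enzymes formed the largest named role besides interferon, with 25 probe sets and a mean of -1.16 ± 1.22 in control, 0.17 ± 0.71 in CHL and -0.40 ± 0.76 in FO. Several handle nucleotides. GMPR, which converts GMP to IMP, had 2 probe sets with control means of -1.17 ± 1.098 and -1.66 ± 1.73, and both were lower in 7 of 8 control pairs. Cytidine deaminase of pyrimidine salvage differed by -1.80 ± 2.13 in control and 0.40 ± 1.71 in CHL. Uridine phosphorylase, from the same salvage route, differed by -1.48 ± 1.91 and 0.84 ± 1.65.

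Conjugating and redox enzymes had similar sizes. UGT1A6, which glucuronidates phenols, lay at 7.16, 11.07 and 11.73 in native and at 6.76, 7.66 and 12.24 in regenerated control cultures. SULT1A1, a phenol sulfotransferase, had an r of -0.873 and a control mean of -1.02. SOD2, the mitochondrial superoxide dismutase, lay at 10.61, 12.86 and 13.24 in native and at 10.16, 10.78 and 13.39 in regenerated control cultures. TXNIP, an inhibitor of thioredoxin, had a control mean of -1.59 ± 1.53 and was lower in 6 of 8 pairs.

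Aminolevulinate synthase 1, the first enzyme of heme synthesis, had 2 probe sets at -1.76 ± 1.85 and -1.81 ± 2.12 in control. PLTP, which moves phospholipids between lipoproteins, differed by -1.17 ± 1.43 in control, at a low mean level of 6.02. The mean difference of phosphatidic acid phosphatase, a lipid phosphatase, was -1.58 in control and 0.12 in CHL. Folate enzyme GGH, inorganic pyrophosphatase PPA1, galactosyltransferase B4GALT3 and mitochondrial PCK2 are members from still other routes. None of 9 listed fatty acid and cholesterol synthesis probe sets was a member, against 1.11% of all probe sets, so this absence also says little.

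Cytoskeletal and trafficking members include PDLIM3, a protein of the actin and alpha-actinin cytoskeleton that is known from muscle. It ran against ACTA2 all the same, with an r of -0.861, and its native control levels were 7.49, 10.80 and 11.71 beside regenerated ones of 7.22, 8.33 and 11.997. The tubulins TUBB and TUBA4A had r of -0.856 and -0.839, but TUBB hardly differed in level, at -0.14 ± 0.45 in control and 0.15 ± 0.19 in CHL. Torsin 1B and torsin 3A, ATPases of the endoplasmic reticulum, were the only 2 listed probe sets with that word in their text, and both are members. OPTN, an autophagy receptor, had a control mean of -0.67 ± 0.65 and was lower in 7 of 8 control pairs.

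The signalling and other members include SMAD1 of the BMP pathway, STC1 (stanniocalcin 1), the phosphatase PTPRG, the serpin SERPINB1 and ABRAXAS2, a subunit of a deubiquitinase complex. ABRAXAS2 differed by -0.52 ± 0.31 in control and 0.02 ± 0.16 in CHL. Its r with the interferon mean was 0.664, the lowest of all members. Some members differed in the same direction in every pair of a diet. The rule used these differences, and the share over all probe sets is not given here, so these counts are descriptions. Regenerated cells were lower in 8 of 8 control pairs for 11 members, among them ABRAXAS2, TRIM26, a ubiquitin ligase of the TRIM family, and PISD, which makes phosphatidylethanolamine in mitochondria. PISD differed by -0.58 ± 0.49, with a control range from -1.59 to -0.08. In FO, 5 members were lower in 6 of 6 pairs, among them TMED10, a cargo receptor of the early secretory pathway, at -0.45 ± 0.43, and the kinetochore protein MIS12 at -0.17 ± 0.15. In CHL no member was lower in 6 of 6 pairs, and ligand of numb-protein X, a ubiquitin ligase for NUMB, was higher in all 6, at 0.25 ± 0.09. No member was lower in all 20 pairs, and the count ran from 6 to 17 pairs with a median of 13.

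The mean over a diet's pairs was below 0 in control for all 200 members, in CHL for 71 and in FO for 190. Among all probe sets the shares below 0 were 52.5%, 45.8% and 50.5% in the same order. The members' signs come from the differences that the rule used and are descriptions. Over the 20 pairs, 11 members had a mean difference below -1, and 35 were at or above -0.2. A strongly negative r therefore went with large differences in some members and with hardly any in others. The 62 members without a product name had differences of the same kind, at -0.74 ± 0.80 in control, 0.09 ± 0.44 in CHL and -0.34 ± 0.68 in FO.

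The members also moved together. Over the 20 pairs the r between any 2 of them lay between 0.449 and 0.990, with a median of 0.818 over 19900 combinations. Each member was chosen for its r with the same ACTA2 differences, so a positive r between members was fixed in advance by the rule. The interferon mean itself had an r of -0.885 with ACTA2. Of the 165 members outside the interferon and antigen presentation roles, 115 had a larger r in size with the interferon mean than with ACTA2. The interferon mean averages 27 probe sets chosen by the same rule, while ACTA2 is 1 probe set. This count therefore cannot tell which of them the members follow more closely. The median r with the interferon mean was 0.921 for complement, 0.883 for chemokines and leukocyte surface, 0.871 for metabolism, 0.840 for nucleolus and RNA and 0.836 for proteasome and ubiquitin. ABRAXAS2 at 0.664, ITGB3 at 0.682, DR1 at 0.706 and ligand of numb-protein X at 0.739 had the lowest values among members with a product name. These r values share the same arrays and pairs and are descriptions.

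**Figure D5:**
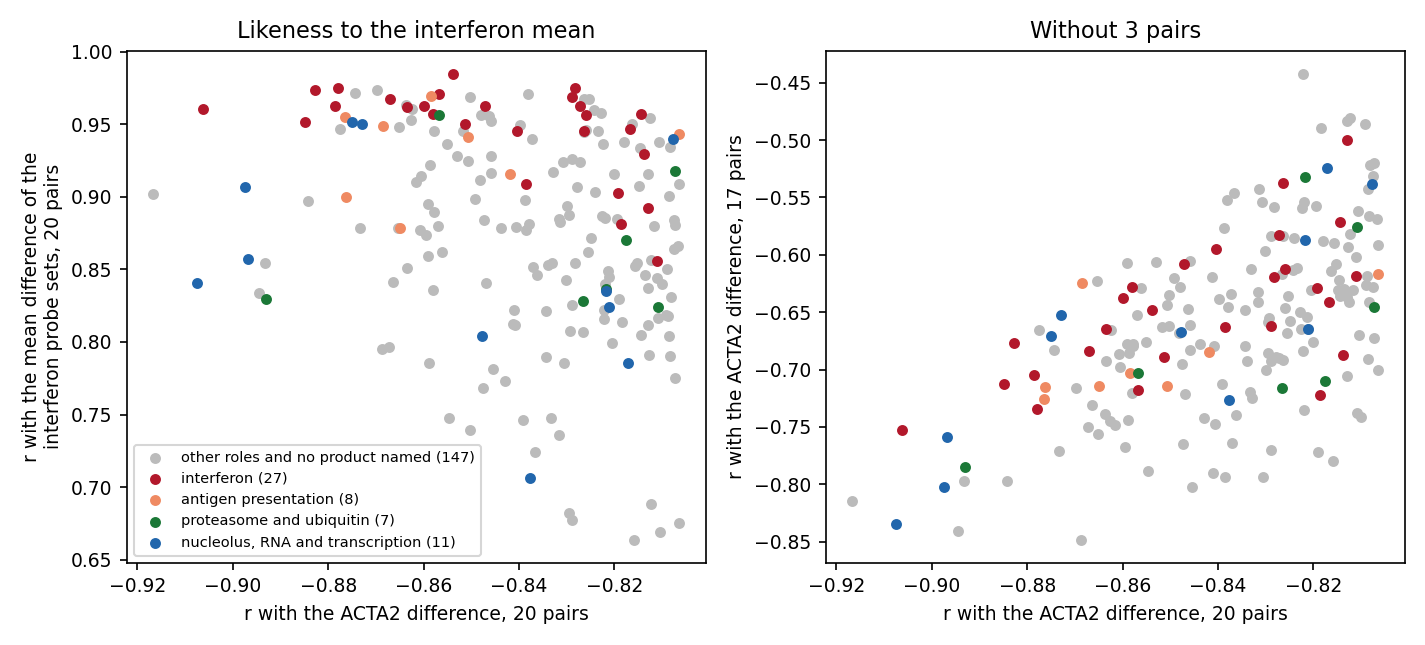
Each point is 1 of the 200 members, with 4 roles in colour and the others in grey. On the left, r with the mean difference of the interferon probe sets (leaving out the probe set itself) stands against r with the ACTA2 difference, both over 20 pairs, and the interferon points lie between 0.856 and 0.985. On the right, r with ACTA2 over 17 pairs, between -0.848 and -0.442, stands against that over 20 pairs.

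Over the 17 pairs without control 4, control 5 and FO 6, all 200 members kept a negative r, with a median of -0.663 against -0.00 over all probe sets. Yet 58 of the 200 were still among the 200 most negative in those pairs. In these pairs 6 members had an r below -0.8. The named ones were thyroid hormone receptor interactor 4 at -0.835, S100 calcium binding protein A10 at -0.815, WD repeat domain 12 at -0.803 and a transmembrane channel-like protein at -0.803. IFITM1 came to -0.753 and IRF7 to -0.677. Within diets the median r was -0.870 in control, -0.421 in CHL, where 179 of 200 were negative, and -0.913 in FO. The CHL pairs had ACTA2 differences between -1.41 and 0.67 only.

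Diet was tested on the mean of the native and regenerated level of each animal, a sum that the rule, built on differences, did not use, although it comes from the same arrays. No member passed an adjusted p of 0.05 in any of 3 contrasts (limma, Benjamini-Hochberg), and 0% of all probe sets did so in either direction. The smallest adjusted p of a member was 0.346 for CHL minus control, 0.621 for FO minus control and 0.9999 for CHL minus FO. The members' median difference was 0.02, 0.08 and -0.01 on the log2 scale, beside -0.00, -0.02 and 0.02 over all probe sets. The median standard error of a member was 0.33, 0.33 and 0.35 in the same order.

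At an unadjusted p under 0.05, CHL minus control had 3 members lower and 0 higher, against 5.87% and 5.13% of all probe sets. PDLIM3 was one of them, at 8.64 ± 1.11 (n = 6) in CHL against 9.80 ± 1.34 (n = 8) in control, a limma difference of -1.15 with a standard error of 0.55 and an adjusted p of 0.443. FO minus control had 2 members lower and 1 higher, against 4.51% and 2.86%. IL6ST was lower by -0.77 and SLC35C2, of the nucleotide sugar transporter family, higher by 0.31, with adjusted p of 0.671 and 0.675 in limma. The other low p values belonged to 2 probe sets with no product name. CHL minus FO had none, against 0.644% lower and 0.978% higher of all probe sets.

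The comparison of regenerated with native cells was itself used by the rule, so its calls are listed only for completeness. In the mean of 3 diets, 2 of 200 members were called lower, against 1.19% of all probe sets, and none higher, against 1.48%. They were PSMB8 and a proteasome probe set whose title is cut short. In control 1 member, ABRAXAS2, was called lower, against 0.189%, and none higher, against 0.1%. No member was called in CHL (0.00556%) or FO (0.0389%). At an unadjusted p under 0.05, 116 members were lower in the mean of 3 diets, 186 in control, 0 in CHL and 9 in FO, against 11.9%, 15.8%, 2.89% and 3.83% of all probe sets. The members' median difference was -0.35, -0.85, 0.05 and -0.33 in the same order. For the change of this difference with diet, no member was called in CHL minus control or FO minus control in limma, against 0% of all probe sets. At an unadjusted p under 0.05, 111 and 9 members were higher, against 9.14% and 2.39% of all probe sets. The rule used these same differences, so no conclusion about diet can be drawn from these counts. The values by diet given above are side by side and not shown to differ.

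Of 80 member symbols, 69 were found as protein-coding genes in the RefSeq table of the pig genome assembly Sscrofa11.1. Neighbouring members formed 11 gene pairs at most 3 places apart. C1R and C1S, IFIT1 and IFIT3, MX1 and MX2, and TAP1 with each of PSMB8 and PSMB9 had no protein-coding gene between them. PSME1 and PSME2, SLA-6 and SLA-8, and IER3 and TUBB had 1 between. All but 3 of the 11 lie among genes of 1 family or 1 pathway.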

How the data were processed

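Total RNA of 40 cultures was hybridised to Affymetrix porcine arrays. Per the submitters' processing notes the authors used MAS5, and the deposited intensity values are its linear signals. The MAS5 version is not given here. A per-pair fold change table that the authors deposited for control pairs was used only to check the pairing. Its values matched the numbers in the titles in 8 of 8 pairs, with r from 0.986 to 0.998. The design text states that both cultures of an animal were compared in pairs, so the animal is a block. The 20 pairs are the replicates and their number limits the precision.

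Values were taken as log2(signal + 16). Control probe sets were left out, leaving 23999 of 24123, and a filter kept the 17999 with a mean above the 25th percentile, so fold changes of dim probe sets are understated. All 200 members passed this filter by construction. Members were ranked by Pearson's r in Python 3.11.15 (pandas 2.3.3, numpy 2.4.6). Regenerated minus native was fitted on 40 arrays with the animal as a block, and diet on 20 animal means, with limma 3.58.1 in R 4.3.3 and Benjamini-Hochberg adjustment over all probe sets, two-sided. Both steps were tested on simulated data.

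Symbols came from the deposited tables, updated through a RefSeq gene table. Titles of 1 deposited file disagreed with the others and were not used. Roles were assigned by hand from the titles. The members and lists were chosen with earlier results of these data known. Named were ACTA2, the 20 members with a symbol and the most negative r, up to 4 per gene list, up to 40 with a symbol outside the interferon, antigen presentation and sensing lists, up to 15 named by title, and the 3 on each side of the limit. Up to 5 members called per diet contrast would have been named. Other members named in the text were chosen after their values were seen. The searches for words in titles were added after the members were seen. Promoter and protein sequences were not used here. Results for some members are not reported here.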

Additional observations from a re-analysis of the deposited data

Results flagged for a closer look

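In 243 groups of paired differences (ACTA2, the means of all members and of each role, and named members, in each diet), 13 single values stood apart from the rest of their group by more than Dixon's 95% limit. Chance flags about 1 in 20 groups, and the members vary together, so 1 unusual pair is counted many times. FO pair 6 accounted for 11 of the 13. Its difference was -2.03 for the mean of chemokines, cytokines and leukocyte surface proteins and -2.94 for the complement mean. C1R was at -5.16 (next lowest -0.58), C1S at -2.79, CXCL2 at -3.69, TAP1 at -2.59, SOD2 at -1.92, PDLIM3 at -3.81, phosphatidic acid phosphatase at -4.08, RNA-binding protein EWS at -1.19 and PSMC1 at -0.89. The labels of this pair name different animals, and its arrays correlate at -0.225. The other values were in CHL pair 1, where PSMC1 was 0.51 higher and TUBB 0.53 higher in the regenerated culture.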

How the results depend on the processing

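The share of the 200 members that stayed among the 200 most negative depended most on which pairs were used. It was 58 without the 3 pairs whose arrays correlate below 0, 37 in the pairs with the same animal number in both labels, 108 without the 2 pairs with degraded RNA, 111 with Spearman's rho and, chosen after seeing the data, 124 without the 2 pairs with the largest ACTA2 shift. Pseudocounts of 1 and 64, quantile normalization, no filter and differences centred within each diet left 146 to 200. Leaving out each replicate in turn left 137 to 193, fewest without FO replicate 6. All 200 members kept a negative r under each of these settings, which reuse most or all of the pairs that chose them, so this is no separate support. Members called lower in regenerated cells numbered 2 in the mean of 3 diets and 1 in control. Without the replicate block, that is without the pairing, these became 0 and 0, and they stayed at 0 in CHL and FO. Both were also 0 without the 2 pairs with degraded RNA and, chosen after seeing the data, without the 3 pairs whose arrays correlate below 0. The mean of 3 diets gave 0 with no filter on low values, and control gave 8 with a pseudocount of 64. Leaving out each replicate gave 0 to 21 in the mean of 3 diets and 0 to 142 in control, most without control replicate 8 in both, and 0 in CHL and FO. The mean of 3 diets gave 14 without FO replicate 5, and control gave 124 without control replicate 3 and 54 without FO replicate 6. Calls over all 17999 probe sets moved too, in control from 52 to 2398 without control replicate 8, 1449 without control replicate 3 and 584 without FO replicate 6, and in the mean of 3 diets from 480 to 1118 without control replicate 8 and 870 without FO replicate 5. The cause was not tested. Diet contrasts of the animal mean called 0 members under each alternative run. The promoter motif search was not run, since no promoter sequences were used here. Dim probe sets limit precision, since MAS5 signals spread widely near background.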
